A study of Mus musculus with 4 samples.

Results

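The Ifit family and the cytosolic sensors of RNA are described here by 10 genes, taken by symbol from the deposited table of 38201 genes: Ifit1, Ifit2, Ifit3, Ifih1, Ddx58, Dhx58, Mavs, Tmem173, Isg15 and Usp18. Each symbol matched 1 row, so 10 of 10 were found. RNA was sequenced from kidney cells of E18.5 mouse embryos, sorted by binding of the lectin DBA, which labels ureteric epithelium. Double knockout (DKO) embryos were Esrp1 -/-, Esrp2 -/-, and control embryos were Esrp1 +/+, Esrp2 -/-, so both groups lack the splicing regulator Esrp2 and differ in its epithelial paralog Esrp1. There were 2 libraries per group, each a pool of RNA from 3 embryos, and the deposited values are FPKM, fragment counts scaled to the length of the gene and the depth of the library. The deletions were carried by the whole embryo, and cells other than ureteric epithelium can be caught by the sort.

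Cells detect viral RNA in the cytosol through helicases of the RIG-I family, which signal through a mitochondrial adaptor to switch on type I interferon. Interferon then acts through its receptor to induce a large set of genes, among them the Ifit genes, the sensors themselves, and Isg15 with its protease. Most cell types of the kidney can express these genes, at a low level where there is no infection.

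Promoter sequence was examined for the core of the interferon-stimulated response element, which the choice of symbols did not use directly. Most of the genes are known to be induced by interferon, so finding the core in them is not independent of that choice. The core was searched as 2 GAAA blocks in the same direction with any 2 bases between them, on either strand (a block reads TTTC on the other strand). RefSeq promoter windows (build GRCm38.p6, from 250 bases before to 50 bases after the start) were matched for 7 of the 10 genes, in 8 windows, and not for Dhx58, Tmem173 or Usp18. The core occurred in the windows of 5 of these 7 genes, against 3.44% of all 32851 windows. It occurred at least 2 times in Ifit1, Ifit3 and Isg15, against 0.225% of all windows. It was not found in the 2 windows of Ifit2 or in that of Mavs. The sequences below show the 250 bases before the start for the genes with repeated cores, and a short stretch around the core for Ifih1 and Ddx58, where it lies just after the start; capitals mark the core.
Ifit1, chr19:34640639-34640888, strand +: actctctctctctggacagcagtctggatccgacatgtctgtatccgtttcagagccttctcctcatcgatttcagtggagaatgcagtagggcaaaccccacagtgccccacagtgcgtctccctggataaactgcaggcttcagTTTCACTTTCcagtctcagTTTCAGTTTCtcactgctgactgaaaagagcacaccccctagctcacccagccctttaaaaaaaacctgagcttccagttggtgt
Ifit3, chr19:34583279-34583528, strand +: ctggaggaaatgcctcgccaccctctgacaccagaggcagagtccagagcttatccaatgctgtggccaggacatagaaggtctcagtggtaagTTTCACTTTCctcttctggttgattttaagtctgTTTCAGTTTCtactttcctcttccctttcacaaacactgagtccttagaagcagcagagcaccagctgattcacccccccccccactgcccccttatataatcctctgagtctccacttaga
Isg15, chr4:156200819-156201068, strand -: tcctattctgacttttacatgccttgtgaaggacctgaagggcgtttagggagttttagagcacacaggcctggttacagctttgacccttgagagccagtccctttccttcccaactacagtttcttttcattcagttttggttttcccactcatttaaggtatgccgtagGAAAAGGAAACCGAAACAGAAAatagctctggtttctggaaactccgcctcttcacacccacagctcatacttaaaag
Ifih1, chr2:62646206-62646233, strand -: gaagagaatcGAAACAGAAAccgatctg
Ddx58, chr4:40239804-40239833, strand -: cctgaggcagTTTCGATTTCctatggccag

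The cores lay at bases -104 and -85 from the start of Ifit1 and at -156 and -122 from that of Ifit3, all on the opposite strand. The 3 cores of Isg15, at -78, -72 and -66, overlap one another on the strand of the gene. Those of Ifih1 and Ddx58 began at bases 33 and 3 of the transcript. A match is a run of letters, and binding at it was not measured.

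**Figure D1:**
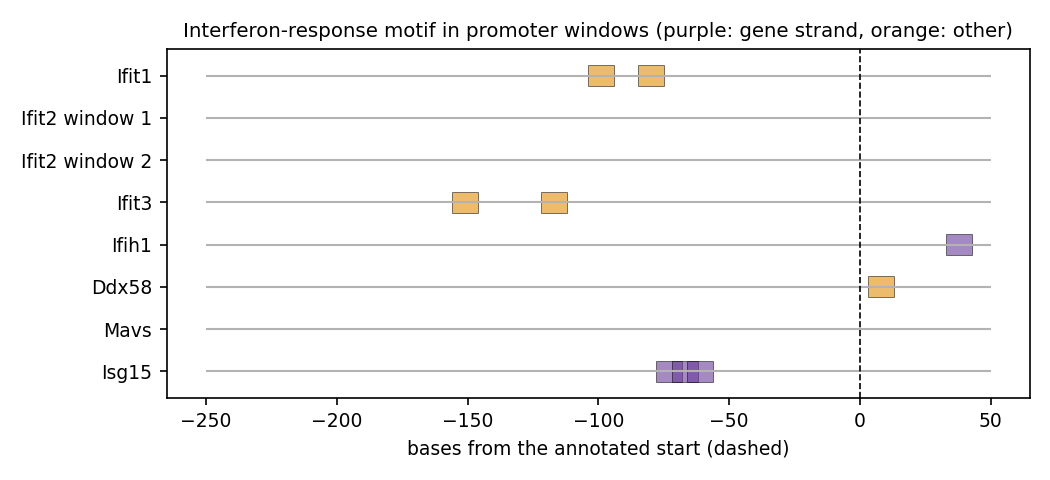
Position of the interferon-response core (coloured boxes) in the RefSeq promoter windows of 7 of the 10 genes, in bases from the annotated start (dashed line). Ifit1 and Ifit3 have 2 cores each upstream of the start and Isg15 has 3 overlapping ones, while the windows of Ifit2 and Mavs have none.

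Before the genes are described, some facts of the libraries bear on all of them. Relative depth, read from the steps between low FPKM values, was 1.09 for DKO replicate 2, 0.508 for control replicate 1 and 1.10 for control replicate 2, with DKO replicate 1 set at 1. Control replicate 1 is thus the shallowest, and at a given FPKM its low values are the least precise. Esrp1 stood at 8.65 and 7.29 FPKM in DKO pools, against 27.0 and 31.4 in control pools. The sorted cells carried ureteric and collecting duct markers, whose sum over 16 genes was 1840 and 1935 FPKM in DKO pools, against 1386 and 1950 in control pools, led by Aqp2, Calb1 and Epcam. Markers of other cells were present too. The sum of 16 macrophage markers was 633 and 601 FPKM in DKO pools, against 2504 and 1186 in control pools, and that of 10 stroma markers, led by Col1a1, Col3a1 and Col1a2, was 217 and 350 against 108 and 142. Proximal tubule markers, led by Slc34a1, Gatm and Lrp2, summed to 182 and 152 against 328 and 356, with 8 of 8 below both controls. The erythroid sum of 5 genes, almost all from Hbb-b1 and Hba-a1, was 814 and 932 against 1717 and 1179, and that of 8 endothelium markers, led by Egfl7, was 187 and 235 against 98.3 and 168. Mitochondrial transcripts took 19.1% and 18.6% of the FPKM of DKO pools, against 25.5% and 23.2% of that of control pools. The part of these differences between libraries in the results below was not tested.

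All 10 genes were lower in both DKO libraries than in both control libraries, where 22.6% of the genes tested had that order and 20.8% had the opposite one. The average FPKM was at least 2-fold lower for 7 of the 10, the 3 Ifit genes, Isg15, Usp18, Dhx58 and Ifih1, against 9.91% of all genes tested that were lower and 6.75% that were higher by that much. The other 3, Ddx58, Tmem173 and Mavs, differed less. The median log2 fold change of the 10 genes was -1.70, against -0.00916 for all genes. The macrophage, proximal tubule and erythroid sums and the mitochondrial share given above were lower in both DKO pools too. In a bulk sample fewer cells of a type and less RNA per cell cannot be told apart.

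None of the 10 genes passed the test over all genes. Genes were tested with limma on log2(FPKM + 0.5), two-sided, over 18884 genes with a group average above 0.1 FPKM, and were called at a Benjamini-Hochberg adjusted p under 0.05 with at least a 2-fold ratio of averages. Calls made up 0.0212% of the genes tested, 0.0053% lower and 0.0159% higher, or 4 genes in all, Gatm lower and SNORA18, SNORA57 and Snora78 higher (named because the count is small). At an unadjusted p under 0.05, 7 of the 10 genes were lower and 0 higher, against 7.35% of all genes lower and 3.35% higher. With 1 library left out, the fit takes its spread from the group that keeps 2. Whether the count of 7 holds without 1 library therefore cannot be read from such fits. The smallest two-sided p that an exact permutation test of 1 gene could give was 0.333 at 2 libraries a group, so differences are given below with their intervals and described as levels.

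**Figure D2:**
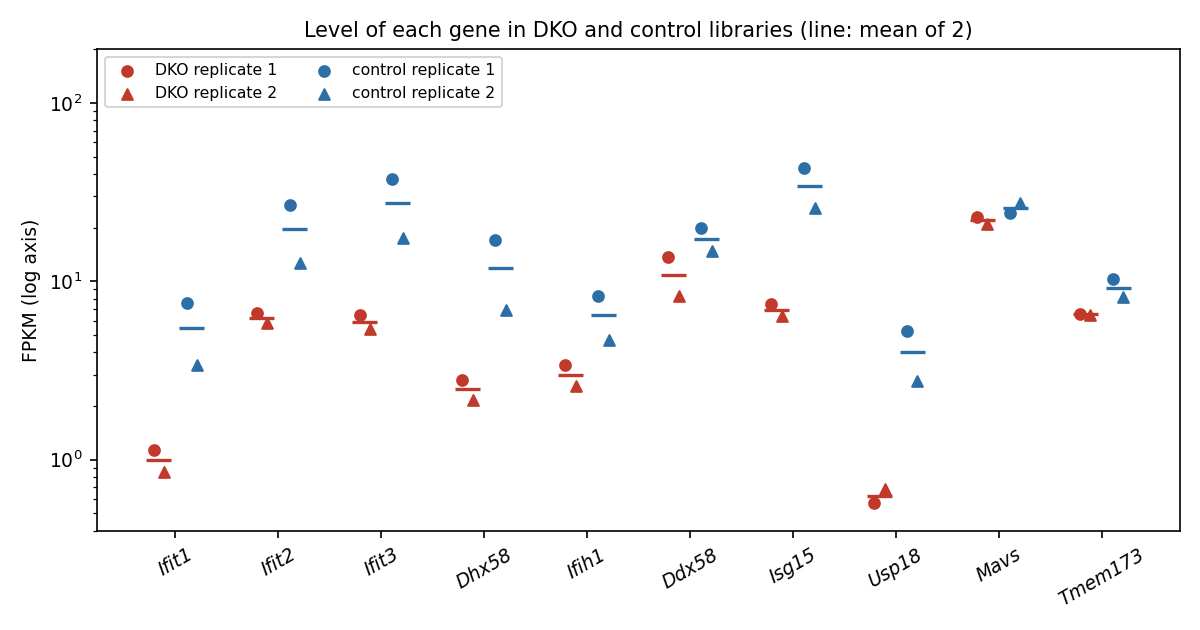
FPKM of the 10 genes on a log axis, with the DKO libraries (red) left of the control libraries (blue), circles for replicate 1, triangles for replicate 2 and a line at the mean of 2. In every gene both DKO values lie below both control values, and for most genes control replicate 1 lies above control replicate 2.

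The Ifit proteins restrain translation, and some of them bind viral RNA. Ifit1, which recognises RNA whose cap lacks the methylation of cellular messages, was measured at 1.13 and 0.851 FPKM in DKO pools, against 7.51 and 3.40 FPKM in control pools. The DKO values were close to each other, while the control values differed by a ratio of 2.21, and the groups did not overlap. The log2 fold change was -1.91 (standard error 0.403, 95% interval -2.95 to -0.87, limma adjusted p = 0.380).

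Ifit3, whose human counterpart stabilises IFIT1 on RNA, was at 6.43 and 5.42 FPKM in DKO pools, against 37.4 and 17.5 FPKM in control pools. Ifit2, another RNA-binding member of the family, was at 6.68 and 5.83 FPKM in DKO pools, against 26.7 and 12.6 FPKM in control pools. In both genes the lower control value was still above the higher DKO value, by a ratio of 2.71 for Ifit3 and 1.89 for Ifit2. The log2 fold change of Ifit3 was -2.02 (standard error 0.372, limma adjusted p = 0.365), and that of Ifit2 was -1.49 (standard error 0.366, limma adjusted p = 0.380). Among the 3 Ifit genes Ifit3 had the highest FPKM in both controls and Ifit1 the lowest. In the DKO libraries Ifit2 and Ifit3 were at nearly the same level.

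The 6 mouse Ifit genes lie within 99.3 kb of chromosome 19 in mm10, with Ifit2 from 34550694 to 34576419, Ifit3 from 34583531 to 34588731 and Ifit1 from 34640871 to 34650009, all on the plus strand. The other genes of the cluster showed the same order. I830012O16Rik, now named Ifit3b, was at 2.05 and 1.70 FPKM in DKO pools, against 6.97 and 3.83 FPKM in control pools (log2 fold change -1.26, standard error 0.328, limma adjusted p = 0.384). The coding sequences of Ifit3 and Ifit3b are 99.1% identical over 1209 bases, so fragments may be shared between them and the split of FPKM between these 2 genes is uncertain. Ifit1 and Ifit2 are apart from them, at 60.1% identity to each other and at most 64.6% to either Ifit3 gene. Gm14446 and 2010002M12Rik, now named Ifit1bl1 and Ifit1bl2, are 77.3% and 77.0% identical to Ifit1. They were near the floor of the table, at most 0.440 FPKM and 0.180 FPKM in any library.

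**Figure D3:**
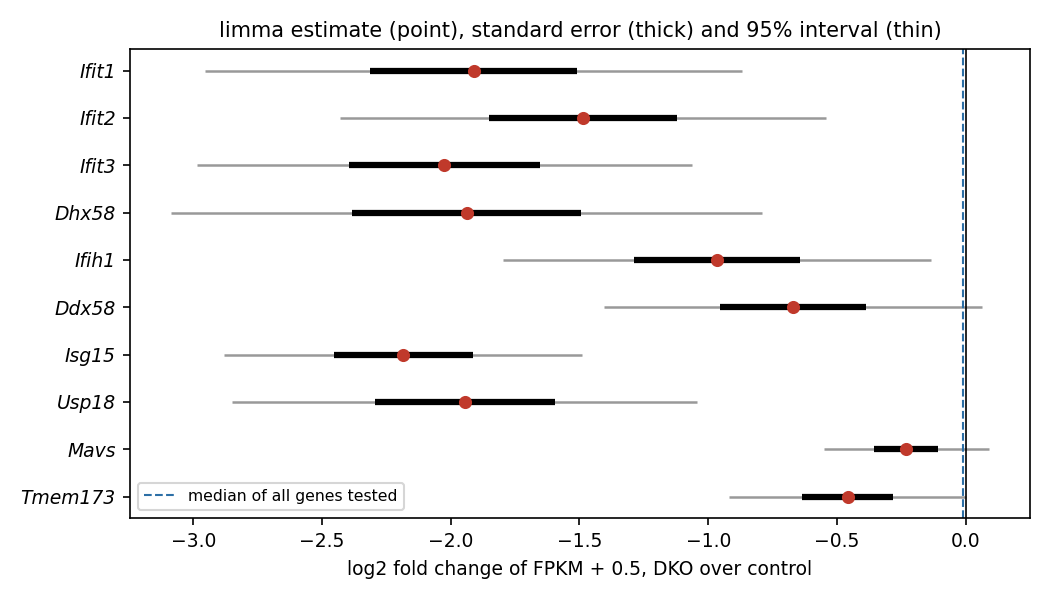
Log2 fold change of FPKM + 0.5, DKO over control, for the 10 genes, with the limma estimate as a point, its standard error as a thick line and its 95% interval as a thin line; the dashed line is the median of all genes tested. The intervals of 7 genes lie below 0, and those of Ddx58, Mavs and Tmem173 include it.

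Among the RNA helicases, the difference was largest for Dhx58 and smallest for Ddx58. Dhx58 encodes LGP2, which binds double-stranded RNA and modulates the other sensors. It was at 2.79 and 2.17 FPKM in DKO pools, against 17.0 and 6.86 FPKM in control pools. The controls of this gene differed by a ratio of 2.48, the widest of the 10 genes, and the groups did not overlap. The log2 fold change was -1.94 (standard error 0.444, 95% interval -3.09 to -0.79, limma adjusted p = 0.380).

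Ifih1 encodes MDA5, the sensor of long double-stranded RNA. It was at 3.40 and 2.58 FPKM in DKO pools, against 8.31 and 4.70 FPKM in control pools, a log2 fold change of -0.97 (standard error 0.322, 95% interval -1.80 to -0.13, limma adjusted p = 0.423). Ddx58 encodes RIG-I, the sensor of short RNA with a free triphosphate end. It was at 13.6 and 8.21 FPKM in DKO pools, against 19.9 and 14.8 FPKM in control pools. Its DKO values differed by a ratio of 1.66, and the higher of them came close to the lower control value, so the log2 fold change of -0.67 (standard error 0.285, limma adjusted p = 0.499) had an interval of -1.41 to 0.0649. When each library was rescaled to TPM (values set to a common sum), the groups overlapped for Ddx58. Of the 3 sensors Ddx58 had the highest FPKM in every library. Dhx58 was above Ifih1 in both controls, with 17.0 against 8.31 FPKM in replicate 1 and 6.86 against 4.70 FPKM in replicate 2, and below it in both DKO libraries.

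In mm10 Ifih1 lies on chromosome 2 from 62595798 to 62646255, Ddx58 on chromosome 4 from 40203773 to 40239828, and Dhx58 on chromosome 11 from 100694884 to 100704271, each on the minus strand. An antisense gene, Dhx58os, overlaps Dhx58 on the other strand; the library kit keeps strand, but no source states that the fragments were counted by strand.

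Isg15 had the lowest log2 fold change with 0.5 FPKM added, and its protease gene Usp18 the lowest ratio of averages in the set. With 0.1 FPKM added, Usp18 was lowest at -2.43, and Ifit1 and Isg15 were both at -2.25. Isg15 encodes a ubiquitin-like protein that is attached to other proteins after interferon. It was at 7.46 and 6.38 FPKM in DKO pools, against 42.9 and 25.6 FPKM in control pools. The lower control value was 3.43 times the higher DKO value, and the log2 fold change of -2.18 (standard error 0.269, 95% interval -2.88 to -1.49, limma adjusted p = 0.365) ranked 57 from the lowest among the 18884 genes tested.

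Usp18 removes Isg15 from proteins and, separately, damps signalling from the type I interferon receptor. It was at 0.569 and 0.683 FPKM in DKO pools, against 5.28 and 2.74 FPKM in control pools, a log2 fold change of -1.95 (standard error 0.349, 95% interval -2.85 to -1.04, limma adjusted p = 0.365). Its ratio of averages was 0.156, and at these low levels the added 0.5 FPKM makes the log2 value understate it. In mm10 Isg15 is encoded by chromosome 4, minus strand, from 156199424 to 156200818, and Usp18 by chromosome 6, plus strand, from 121245906 to 121270917, where Gm44148 overlaps it on the other strand.

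The adaptors, like Ddx58, differed less than 2-fold between the groups. Mavs, the mitochondrial protein through which RIG-I and MDA5 signal, was at 23.0 and 20.9 FPKM in DKO pools, against 24.2 and 27.5 FPKM in control pools, and was the only one of the 10 genes lower in control replicate 1 than in control replicate 2. Its log2 fold change of -0.23 had a 95% interval of -0.55 to 0.0901 (standard error 0.124, limma adjusted p = 0.589). After rescaling to TPM, which moved the median of all genes to 0.11, Mavs stood at -0.10 and its groups overlapped. Tmem173 encodes STING, which relays the sensing of cytosolic DNA rather than RNA. It was at 6.57 and 6.48 FPKM in DKO pools, against 10.3 and 8.16 FPKM in control pools, with a log2 fold change of -0.46 (standard error 0.178, limma adjusted p = 0.466). The interval of Tmem173, -0.92 to 0.000840, just includes 0. Mavs lies on chromosome 2 from 131234063 to 131248025 and Tmem173 on chromosome 18 from 35733679 to 35740554.

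Genes around this pathway were read from lists in the same fit. Over all genes tested, 22.6% were below both controls and 20.8% above. At least 2-fold lower were 9.91%, and 7.35% were lower at an unadjusted limma p under 0.05. The list counts that follow are to be read beside these shares. Of 22 genes that carry or regulate the signal from the RNA sensors 10 were below both controls, 1 above and 11 overlapping (median log2 fold change -0.13), and 0 were called. Those lower at an unadjusted p under 0.05 were 4, Irf7, Trim25, Tnfaip3 and Zc3hav1, and the 1 above both controls was Tbkbp1 (named because the counts are small). The most abundant of the 22 genes, Irf3, Azi2, Ikbkb and Chuk, had log2 fold changes of -0.39, -0.14, -0.39 and -0.31. Irf7, itself an interferon-induced factor, stood apart at 5.70 and 5.52 FPKM in DKO pools, against 54.0 and 19.4 FPKM in control pools (chosen after its values were seen; limma adjusted p = 0.375). Tbk1, the kinase downstream of Mavs, was at 9.78 and 11.1 FPKM in DKO pools, against 13.2 and 11.7 FPKM in control pools (chosen after its values were seen).

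Most sensors and effectors of other cytosolic nucleic acids were lower in both DKO libraries. Of 15 tested, 13 were below both controls, 2 overlapped and 12 were at least 2-fold lower (median -1.78), with 0 called and 13 at an unadjusted p under 0.05. The most abundant was Samhd1, which degrades deoxynucleotides, at 24.3 and 21.5 FPKM in DKO pools, against 43.0 and 30.9 in control pools. Oasl2, of the oligoadenylate synthetase family, was at 7.11 and 7.55 against 48.6 and 21.8 FPKM. Eif2ak2, which encodes the RNA-activated kinase PKR, was at 16.3 and 16.9 against 25.6 and 21.3 FPKM, and Adar, which edits double-stranded RNA, at 21.7 and 18.2 against 32.4 and 19.6 FPKM with overlapping groups.

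The interferons themselves were almost undetected. Of 15 interferon genes 14 were listed at 0 in every library, and Ifnz was at 0.0887 and 0 FPKM in DKO pools, against 0.265 and 0.121 in control pools; a listed 0 can be a failed estimate, and the limit it sets is unknown without counts. Among 14 receptor and signalling genes of the interferon pathway 9 were below both controls, 3 above and 2 overlapping (median -0.41), with 0 called and 6 at an unadjusted p under 0.05. The receptor chain Ifnar1 was at 33.4 and 35.3 against 36.8 and 34.2 FPKM, with overlapping groups, and its partner Ifnar2 at 14.0 and 16.8 against 31.0 and 23.9 FPKM. Jak1, the kinase bound to the receptor, was at 43.9 and 48.9 against 37.4 and 43.1 FPKM. Transcription factors that act downstream of the receptor were lower in the DKO libraries, with Stat2 at 4.42 and 4.29 against 16.8 and 8.36 FPKM, and Irf9 at 13.6 and 12.1 against 29.7 and 19.4 FPKM (chosen after their values were seen).

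Of 6 genes of Isg15 conjugation, a list that holds Usp18, 5 were below both controls and 1 overlapped (median -0.91), with 0 called and 4 at an unadjusted p under 0.05. Uba7, the activating enzyme, was at 14.3 and 14.7 FPKM in DKO pools, against 45.1 and 17.8 in control pools. Ube2l6, the conjugating enzyme, was at 7.61 and 5.97 against 17.2 and 10.6 FPKM. The ubiquitin-ligase genes Trim25 and Herc3 had log2 fold changes of -0.44 and -0.0427. Herc6, also in the list, was at 1.41 and 1.27 against 3.23 and 2.50 FPKM, with -0.86 (chosen after its values were seen).

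Macrophage markers had the same order of groups as the 10 genes. All 16 markers were below both controls and at least 2-fold lower on average (median -1.49), with 0 called and 16 at an unadjusted p under 0.05, and none was at 0 in any library. The most abundant were C1qb at 110 and 107 FPKM in DKO pools, against 424 and 202 in control pools, C1qc at 91.7 and 83.8 against 393 and 174, and C1qa at 83.3 and 82.2 against 308 and 148. Their summed level in control replicate 1 was 2.11 times that in control replicate 2, and the same ratio was between 1.68 and 2.48 for the Ifit genes, Isg15, Usp18, Dhx58 and Ifih1. It was 1.35 for Ddx58, 1.26 for Tmem173 and 0.879 for Mavs. The sum of 6 markers of all leukocytes was 86.9 and 84.9 FPKM in DKO pools, against 327 and 165 in control pools. The part of the macrophages in these differences was not tested.

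Markers of other leukocytes were less abundant. The sum of 7 dendritic cell markers was 7.45 and 7.81 FPKM in DKO pools, against 9.83 and 6.70 in control pools. It was mostly Zbtb46, at 6.97 and 7.40 against 7.83 and 5.51, and so says little of the other markers. The next by level, Siglech, was at 0.246 and 0.324 against 1.37 and 1.10, and Ccr9, near the floor, at 0 and 0 against 0.302 and 0.0931. The sum of 10 T, NK and B cell markers was 9.86 and 12.1 against 17.0 and 14.7, mostly from Cd79b. Of 8 neutrophil and monocyte markers Mpo, Ly6g and Elane were listed at 0 in every library, and the sum, mostly S100a8 and S100a9, was 62.5 and 44.9 against 98.3 and 111. The sum of 5 mast cell markers, mostly Kit, was 17.9 and 21.9 against 17.4 and 19.4.

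**Figure D4:**
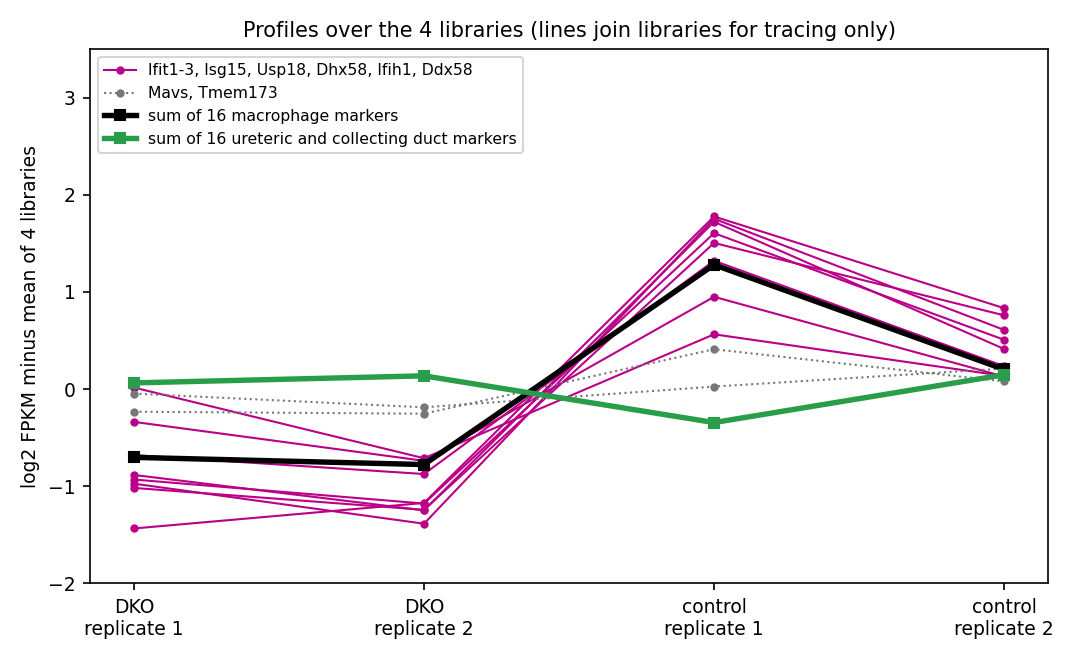
Log2 FPKM in each library minus the mean of the 4 libraries, for the 10 genes (thin lines) and for the sums of 16 macrophage markers (black) and 16 ureteric and collecting duct markers (green); lines join libraries for tracing only. The interferon-response genes and the macrophage sum are highest in control replicate 1. They are low in both DKO libraries, except Ddx58, which is near its mean in DKO replicate 1. Mavs, Tmem173 and the epithelial sum stay closer to their means than most of these.

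Set against the macrophage sum of their own library, the 10 genes fell into separate sets. These ratios were computed after the values had been seen and are given with no test. Per 1000 FPKM of macrophage markers Ifit3 had 10.2 and 9.02 FPKM in DKO pools, against 14.9 and 14.7 FPKM in control pools, so the controls, which differed by a ratio of 2.14 in FPKM, were almost equal on this scale. Ifit1 had 1.79 and 1.42 against 3.0 and 2.86, Isg15 had 11.8 and 10.6 against 17.1 and 21.6, Usp18 had 0.899 and 1.14 against 2.11 and 2.31, and Dhx58 had 4.41 and 3.61 against 6.80 and 5.79. Those of Ifit2 were 10.5 and 9.70 against 10.7 and 10.6, a ratio of averages of 0.951. On this scale 6 of the 10 genes were below both controls, against 1.68% of all genes tested. By arithmetic, a gene can lie below only where it differs more than the marker sum, whose control average was 2.99 times its DKO average. The 16 markers themselves had log2 fold changes from -1.97 for Fcgr1 to -0.99 for Mertk (chosen after their values were seen). Single markers thus also lie on either side of their sum, Fcgr1 below both controls and Mertk above. The share of all genes is set by the same arithmetic, and the part of the macrophages was not tested.

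The other 4 genes were above both controls per unit of macrophage marker, as were 83.5% of all genes tested. Ifih1 had 5.38 and 4.29 FPKM per 1000 FPKM of markers in DKO pools, against 3.32 and 3.97 in control pools, and Ddx58 had 21.5 and 13.7 against 7.95 and 12.5. Tmem173 had 10.4 and 10.8 against 4.10 and 6.88, and Mavs had 36.3 and 34.7 against 9.66 and 23.2. The scale divides by a sum that was lower in both DKO pools, so any gene that differs less than the markers stands higher on it by arithmetic.

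**Figure D5:**
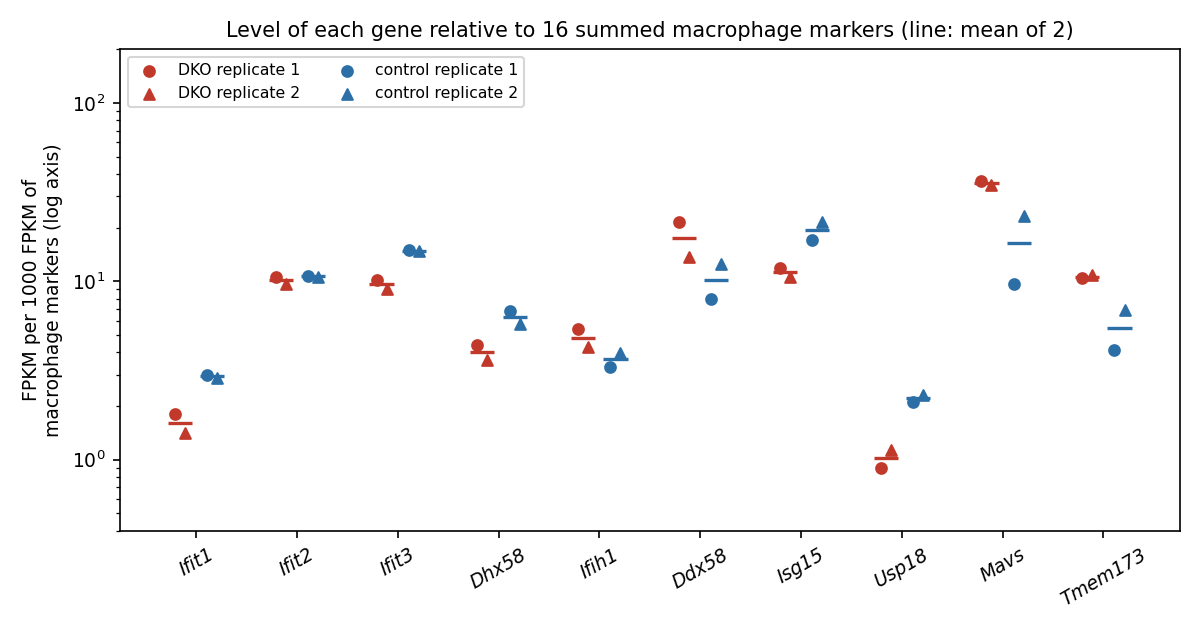
FPKM of the 10 genes per 1000 FPKM of 16 summed macrophage markers of the same library, on a log axis, with the DKO libraries (red) left of the control libraries (blue) and a line at the mean of 2. Ifit1, Ifit3, Dhx58, Isg15 and Usp18 have DKO values clearly below the control values, those of Ifit2 nearly coincide, and the other 4 genes have DKO values above the control values.

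The genes whose profile over the 4 libraries was closest to the mean of Ifit1, Ifit2, Ifit3 and Isg15 were sought among 13817 genes with at least 1 FPKM in each control, by the Euclidean distance between centred log2(FPKM + 0.5) values. The 8 closest were H2-T23, Mnda, Ifi204, Trim30c, Slfn1, Gm5431, Cd52 and RP24-547D11.2, at distances of 0.0522 to 0.183, against a median of 2.02 over all genes compared. H2-T23, a nonclassical class I histocompatibility gene, was at 6.44 and 5.29 FPKM in DKO pools, against 33.8 and 16.9 FPKM in control pools. Ifi204, of a family of interferon-inducible DNA sensors and also in the list of other sensors above, was at 5.08 and 3.93 against 26.4 and 13.0 FPKM, and Cd52, a surface protein of leukocytes, at 9.81 and 9.25 against 46.7 and 25.1 FPKM. Of the 10 genes described here, Mavs was the farthest from this profile, at 1.86, followed by Tmem173 at 1.52 and Ddx58 at 1.34. With 4 libraries such likeness rests on few points.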

How the data were processed

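RNA-Seq of DBA-sorted cells from E18.5 kidneys gave 2 DKO and 2 control libraries. The authors mapped paired-end reads to mm10 and the Ensembl transcriptome, and the values they deposited are FPKM for each gene in each library. TopHat 1.4.1 and Cuffdiff 2.2.1 are named in the submitters' processing notes. For the scaling between libraries, the method is not given in the sources used. In the copy used, 2 lines were empty. The authors' group averages were not used.

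FPKM are not counts, so limma 3.58.1 in R 4.3.3 was run on log2(FPKM + 0.5) with a variance trend, over genes with a group average above 0.1 FPKM; calls needed an adjusted p under 0.05 and a 2-fold ratio of averages, the fold and minimum of the study's methods. The fit was run on simulated data with 200 raised genes and independent noise, so that run does not cover lowered genes or shifts shared by many genes. An FPKM of 0 is given as listed at 0. Positions come from GENCODE M21 on mm10, promoters from RefSeq. Python 3.11.15 with matplotlib 3.10.9 drew the figures.

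The 10 genes, the lists and the tests were chosen with earlier results of these data known. Named genes are the 10, up to 4 of each pathway list and 3 of each marker list by mean FPKM, and the 8 closest in profile; others are marked as chosen after their values were seen. Nothing shows that p-values cover more than the spread between these pools. Alternatives were pseudocounts of 0.1 and 1, no filter or a minimum of 1 FPKM, TPM and median-ratio scaling, other variance priors, a replicate block, each library left out, and, added after seeing the data, the ratio to macrophage markers. A member of a pathway list is not reported here.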

Additional observations from a re-analysis of the deposited data

How the results depend on the processing

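All 130 log2 fold changes of the 10 genes over the 13 settings tried were negative. Most of these signs were fixed in advance. The filters, variance settings and replicate block leave a log2 fold change as it was. For genes with both DKO values below both control values, only rescaling the libraries could change the sign. None of the 10 genes was called with all 4 libraries kept, and the lowest adjusted p from limma was 0.0596, with the replicate block. Calls over all genes, 4 in the analysis as described, numbered 1 with no filter on low values, 2 with no variance trend and 16 with the replicate block, and 0 with any 1 library left out. The cause was not tested. Leaving out 1 library each gave medians of the 10 genes from -2.19 (without control replicate 2) to -1.14 (without control replicate 1). All 10 genes stayed below the remaining libraries of the controls, as were 31.2% to 44.5% of all genes. Their order with all 4 libraries fixed that outcome in advance. With TPM scaling 8 of the 10 were below both controls (13.8% of all genes, with 32.9% above), as Ddx58 and Mavs overlapped. Whether same-numbered libraries belong together is not stated in the sources used. Their deviations had a correlation of 0.105 across 18884 genes, which does not settle it. In this balanced design the block cannot move a log2 fold change, so the median of the 10 genes stayed at -1.70. Per unit of macrophage marker, a scale added after seeing the data, 6 genes were below both controls (1.68% of all genes), the median was -0.35, and the log2 ratio was 0.41 for Ifih1, 0.79 for Ddx58, 1.11 for Mavs and 0.95 for Tmem173. By construction of that scale, genes that differ less than the markers stand higher on it, and only genes that differ more can lie below. Read totals are not in the table, so the counting error of low genes such as Usp18 is unknown. At a given FPKM that error is largest in control replicate 1, the shallowest library, but Usp18 had its lowest FPKM in the DKO libraries.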

Other observations

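The order of the Ifit genes extended to most other interferon-stimulated genes. Of 29 such genes tested, 27 were below both controls (22.6% of all genes) and 2 overlapped. At least 2-fold lower were 19 (9.91% of all genes), and the median log2 fold change was -1.21. By limma 0 were called and 24 were lower at an unadjusted p under 0.05 (7.35% of all genes). The most abundant were B2m, the light chain of class I histocompatibility molecules, at 188 and 172 FPKM in DKO pools, against 682 and 342 FPKM in control pools, and Ifitm3, which blocks viral entry, at 57.5 and 70.1 against 145 and 109. Bst2, which tethers virus particles, was at 40.8 and 37.4 against 130 and 93.3 FPKM, and Ifi27l2a at 18.5 and 14.2 against 76.1 and 48.9 FPKM.

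Classical antiviral genes did not all differ by the same amount. Mx1, an antiviral GTPase, was at 1.47 and 0.669 FPKM in DKO pools, against 13.5 and 4.79 FPKM in control pools. Rsad2, which encodes viperin, was at 10.1 and 9.55 against 15.6 and 12.4 FPKM, with a log2 fold change of -0.49, and its neighbour Cmpk2, a mitochondrial nucleotide kinase, at 6.17 and 6.34 against 9.03 and 7.26 FPKM, with -0.35. These 3 genes were chosen after their values were seen, and the difference between them was not tested.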
